A study of Mus musculus with 12 samples.

Results

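The m6A peaks described here are those that were assigned to a transcript annotated as a target of nonsense-mediated decay, called NMD peaks below. They were taken from the deposited m6A peak lists of mouse lung by the transcript biotype given for each peak, whatever region of the transcript was annotated. This gave 1124 of 27292 peaks in the OVA group and 1095 of 26102 peaks in the PBS group. The NMD peaks of the OVA group fell on 739 genes and 772 transcripts, and those of the PBS group on 702 genes and 735 transcripts.

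Female BALB/c mice aged 6 to 8 weeks either received ovalbumin (OVA), as a model of acute allergic asthma, or phosphate-buffered saline (PBS) as control. The OVA group was sensitized on days 0 and 7 by intraperitoneal OVA with aluminum hydroxide, and from day 14 to day 20 inhaled aerosolized 3% OVA for 30 min a day, whereas the PBS group had PBS at each step. Lung was taken on day 21, and fragmented RNA depleted of ribosomal RNA was sequenced with (IP) and without (input) immunoprecipitation by an antibody to m6A, in 3 mice per group. Each group has 1 peak list, made from its IP against its input libraries, so the lists hold no value of a single mouse, no depth of a single library and no test between the groups, and 95% Wilson intervals cover counting error only, over peaks that can share a gene.

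Nonsense-mediated decay is a surveillance pathway that degrades RNAs in which translation ends well upstream of an exon junction, and transcripts annotated with this biotype are mostly alternatively spliced forms of protein-coding genes. In several families of splicing factors such forms carry a so-called poison exon and lower the output of the gene. The m6A mark, in turn, is set on nascent RNA and is known to be dense around stop codons and in 3′ UTRs, where reader proteins link it to RNA stability.

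NMD peaks were assigned to coding genes, as follows from the biotype by which they were taken. Of the 739 genes with such a peak in the OVA list, 717 of the 719 with an entry in RefSeq were protein-coding genes, and the same held for 680 of 682 in the PBS list. Most of these genes had a single peak of this kind, namely 68.2% in OVA and 68.4% in PBS, and 30 and 29 genes had 4 or more. The same gene often carried peaks assigned to its other transcripts. In the OVA list 360 of the 739 genes also had a peak of another biotype, and 199 had a protein-coding one. For the PBS list these numbers were 349 and 197 of 702 genes.

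Most NMD peaks were in 3′ UTRs. In the OVA list 656 of 1124 were there (58.4%, interval 55.5 to 61.2%), 301 were in other exons (26.8%, 24.3 to 29.4%) and 167 in 5′ UTRs (14.9%, 12.9 to 17.1%). In the PBS list 608 of 1095 lay in 3′ UTRs (55.5%, 52.6 to 58.4%), 341 in other exons (31.1%, 28.5 to 33.9%) and 146 in 5′ UTRs (13.3%, 11.4 to 15.5%). The groups' intervals overlapped for each region. Over all peaks of the OVA list the shares were 52.7%, 35.7% and 11.6%, and over those of the PBS list 52.7%, 35.9% and 11.4%. The share of all peaks in 3′ UTRs was within the NMD interval in the PBS list and below it in the OVA list. Retained-intron peaks had a higher share there, with 61.1% (OVA) and 61.8% (PBS), as did processed-transcript peaks, with 60.4% and 60%. The 5′ UTR share of NMD peaks was between that of peaks assigned to protein-coding transcripts, 20.4% in the OVA list, and that of peaks assigned to retained-intron transcripts, 6.02%.

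Fold enrichment, the IP over input ratio that the peak caller gave for a peak, had a median of 5.65 over NMD peaks in the OVA list (quartiles 2.9 and 10.6) and of 5.29 in the PBS list, where the third quartile was 10. All peaks had medians of 5.59 and 5.44. Within the OVA list, NMD peaks in 3′ UTRs had a median of 6.67, those in 5′ UTRs 4.88 and those in other exons 4.42. The PBS list had the same order of regions, with medians of 6.11, 4.99 and 4.41. The strongest enrichment was thus in the 3′ UTR in both groups. Nearly all NMD peaks passed an FDR of 0.05, with 1101 of 1124 in the OVA list against 98.1% of all its peaks, and 1078 of 1095 in the PBS list against 97.8%.

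NMD peaks were somewhat wider and more often spliced than the peaks of their lists. Their median width from start to end was 481 bp for OVA and 479 bp for PBS, against 390 and 361 bp over all peaks. Counting exonic blocks alone, the median was 360 bp in both lists, against 329 and 327 bp over all peaks. More than 1 block was present in 355 NMD peaks of the OVA list (31.6%, 28.9 to 34.4%) and in 306 of the PBS list (27.9%, 25.4 to 30.7%), against 24.1% and 21.4% of all peaks. Among retained-intron peaks this share was 28.2% in the OVA list. The spliced NMD peaks of the OVA list had a median fold enrichment of 6.28 and those with 1 block 5.36. The assigned transcripts had a median genomic span of 12162.5 bp over the NMD peaks of the OVA list, against 5201 bp over all its peaks, but 11419 bp over its protein-coding peaks.

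The transcript named for a peak was not always one that the peak lay in. Of the NMD peaks in the OVA list, 387 lay wholly inside the genomic span of the assigned transcript (34.4%, 31.7 to 37.3%), 369 did so in part (32.8%) and 368 had no base in it (32.7%, 30.1 to 35.5%). The PBS list had 370, 334 and 391 of these. Over all peaks the share with no base in the assigned transcript was 41.9% in OVA and 42.9% in PBS, so that this held for other biotypes too. The outlying NMD peaks lay on both sides of the transcript. In the OVA list 188 were upstream of its start, at a median gap of 2758.5 bp, and 180 downstream of its end, at 1723 bp.

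In 5′ UTRs the assignment was tighter, with no base in the assigned transcript for 16 of 167 NMD peaks of the OVA list (9.58%), against 228 of 656 in 3′ UTRs (34.8%) and 124 of 301 in other exons (41.2%). Where the region was an exon, its annotation cited a transcript, and this was the assigned one for 13 of 301 NMD peaks in the OVA list and 14 of 341 in the PBS list, against 2993 of 9745 and 2813 of 9362 exon peaks of all biotypes. The cited gene was the assigned gene for 255 and 281 of them. An NMD peak is thus a peak to which such a transcript was assigned, and not one shown to lie on it. Peaks are called on a gene before they are annotated, and 119 NMD peaks of the OVA list (10.6%) and 124 of the PBS list (11.3%) had been called on another gene than the assigned one, against 22.5% and 22.8% of all peaks.

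The NMD peaks with the highest fold enrichment, among those with FDR under 0.05, were led by the same gene in both groups. The RNA helicase gene Dhx9 reached 520 in the OVA list, in the 3′ UTR at chr1:153455848-153457612, and 162 in the PBS list. In neither list did the Dhx9 peak have a base in the assigned transcript. In the OVA list Dhx9 was followed by Sult6b2, a sulfotransferase gene, with 57.5 at chr6:142828221-142829089. That peak had been called on St8sia1, the gene of a ganglioside sialyltransferase, and also had no base in the assigned transcript. Atoh8, a basic helix-loop-helix factor, had 56.3 at chr6:72206177-72206833 and Gas2l2, a cytoskeletal linker of ciliated cells, had 55.4 at chr11:83422112-83423102, both in the 3′ UTR. The Atoh8 and Gas2l2 peaks lay wholly inside their assigned transcripts. Rusc2, which encodes a RUN and SH3 domain protein, was the 5′ UTR member of the 5, with 51.4 at chr4:43414658-43415465, and its PBS counterpart had the same ends and 30.2.

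In the PBS list the peaks next to Dhx9 were on Cyp1b1, a cytochrome P450 of xenobiotic metabolism, with 81.9 at chr17:79709944-79710453, and on Rps19bp1, whose product binds a ribosomal protein, with 65.6 at chr15:80260615-80261112. Abcb9, a lysosomal peptide transporter gene, had 49.3 at chr5:124089606-124090175 and Tmem26, a membrane protein gene, 49.1 at chr10:68782113-68782560. The Cyp1b1 and Abcb9 peaks lay wholly inside their assigned transcripts, the Rps19bp1 peak in part, and the Tmem26 peak had no base in its own. Each of these leading peaks was found in the other list too. Atoh8 and Gas2l2 had 19.2 and 14.4 in the PBS list, and Cyp1b1 had 11 in the OVA list. Since fold enrichments depend on each group's libraries, peaks were compared between the groups by their percentile among all peaks of their own list. On that scale Dhx9 stood at 99.99 in both lists, and Cyp1b1 at 99.9 in the PBS list and 73.6 in the OVA list.

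The NMD peaks of lowest p were on other genes than those of highest ratio. The lowest recorded p of the OVA list was on Ccdc134, a gene of the secretory pathway, in the 3′ UTR at chr15:82135135-82141366, where the log10 p was given as minus infinity and the fold enrichment was 47.8. Its PBS counterpart had a log10 p of -457, and why no finite value was given is not known, so its rank by p is uncertain. Son, which encodes a nuclear speckle protein needed for splicing, had a log10 p of -8980 in OVA and -8660 in PBS, with fold enrichments of 11.7 and 10.5. Its peak was exonic, at chr16:91655795-91658614 in the OVA list and chr16:91655884-91657084 in the PBS list. In neither list did this Son peak have a base in the assigned transcript. Elk4, an ETS factor that partners serum response factor, had -3470 and -3170 in a peak of 4 blocks, with fold enrichments of 13 and 12.7. Son and Elk4 were among the 5 lowest in both lists.

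Iqgap1, a scaffold of the actin cytoskeleton, and Il4ra, the receptor chain shared by IL-4 and IL-13, completed these peaks in the OVA list. The Iqgap1 peak, at chr7:80713081-80713860 in the 3′ UTR, had the same ends in both lists, and fold enrichments of 9.18 in the OVA and 9.4 in the PBS list. As assigned in the OVA list, it had no base in the named transcript, whereas the Il4ra peak lay wholly inside its own. The Il4ra peak at chr7:125575563-125576906 had a log10 p of -2840 and a ratio of 7.75 in the OVA list, against -1490 and 7.53 in the PBS list. Its percentile was 61.4 and 61.6, so that the rank of this receptor peak was nearly the same in both groups. In the PBS list the other peaks of lowest p were on Limch1, an activator of nonmuscle myosin, with -3130, on Clec1a, a C-type lectin receptor gene, with -2940, and on Togaram1, a microtubule protein of cilia, with -2420. These 3 had fold enrichments of 9.06, 18.4 and 22.9 in the PBS list and 10, 21.3 and 26 in the OVA list. In the PBS list the Limch1 peak had no base in the assigned transcript, the Clec1a peak lay in it in part and the Togaram1 peak wholly.

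The gene with most NMD peaks was Fkbp7, which encodes a peptidyl-prolyl isomerase of the endoplasmic reticulum, with 14 in the OVA and 25 in the PBS list. All of them had been called on its neighbour Ttn, the gene of the striated muscle protein titin, and had no base in the Fkbp7 transcript at chr2:76665707-76673116. They lay between chr2:76704010 and chr2:76749691, all but 1 annotated as exon. Their median fold enrichment was 5.83 in OVA and 4.12 in PBS. Of the 25 in the PBS list 16 had no overlapping peak in the OVA list, whereas this held in the other direction for 2 of 14. Peaks of any biotype called on Ttn numbered 23 in the OVA and 40 in the PBS list.

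Gm49388, a predicted gene that overlaps the histone methyltransferase gene Setd1a, had 9 NMD peaks in each list. In each list 5 of them had been called on Setd1a and 4 on Gm49388, at nearly the same positions, so that this locus was counted more than 1 time. Its strongest peak, at chr7:127784864-127785492, had a fold enrichment of 35.4 in OVA and 15.4 in PBS. Fat1, which encodes an atypical cadherin, had 8 and 7, all exonic. The largest Fat1 peak, chr8:45025223-45027484, had a fold enrichment of 7.07 in the OVA and 5.15 in the PBS list. Within each list, 139 NMD peaks of the OVA group (12.4%) and 133 of the PBS group (12.1%) shared bases with another peak, against 11.3% and 11.2% of all peaks.

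Most NMD peaks were found in both groups. A peak was taken as shared when at least 1 bp of its exonic blocks overlapped any peak of the other list, whatever its biotype. No such overlap was found for 189 of 1124 NMD peaks in the OVA list (16.8%, 14.7 to 19.1%), where the share over all peaks was 19.4%. In the PBS list there were 140 of 1095 (12.8%, 10.9 to 14.9%), against 14.5% over all peaks. When 50% of each peak had to be covered, 28.5% (OVA) and 26.4% (PBS) of NMD peaks were unshared, against 31.4% and 28.3% of all peaks. Under the 1 bp rule the shares of NMD peaks were near those of the lists as a whole, with the upper bound below the share of all peaks in the OVA list and above it in the PBS list.

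Unshared NMD peaks were weak and narrow, as were the unshared peaks of the lists as a whole. In the OVA list they had a median fold enrichment of 2.46 and a median block width of 121 bp, against 6.63 and 419 bp for shared ones. Values for the PBS list were 3.29 and 121 bp, against 5.76 and 391 bp. Over all peaks, the unshared ones had a median fold enrichment of 2.87 (OVA) and 3.45 (PBS), and a median block width of 121 bp in both. Their share differed by region, with 44 of 167 peaks in 5′ UTRs of the OVA list (26.3%, 20.3 to 33.5%), against 89 of 656 in 3′ UTRs (13.6%, 11.2 to 16.4%). All peaks of the OVA list had 23.6% and 14.3% there, both within these intervals. In the PBS list 32 of 146 were unshared in 5′ UTRs (21.9%, 16 to 29.3%) and 49 of 608 in 3′ UTRs (8.06%, 6.15 to 10.5%), against 19.6% and 9.78% of all peaks. Of exon peaks in the OVA list, 56 of 301 NMD peaks were unshared (18.6%, 14.6 to 23.4%), against 25.5% of all exon peaks. Among protein-coding exon peaks it was 21.5%, among processed-transcript ones 22% and among retained-intron ones 26.7%. The PBS list had 59 of 341 (17.3%, 13.7 to 21.7%), against 19.7% of all its exon peaks. An unshared peak alone does not tell a difference in methylation from one in the amount of RNA or in the cells that make it. The lists hold no amount of RNA, and which of these applied was not tested.

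Of the NMD peaks found in the OVA list only, 3 of those with the lowest p values are given here. Clec4e, which encodes the macrophage receptor Mincle, had a fold enrichment of 7.38 and a log10 p of -30 at chr6:123283344-123285565, and no peak was assigned to it in the PBS list. The others were a peak of Gpcpd1, a glycerophosphodiester phosphodiesterase gene, with 1.85 and -35.5, and a 5′ UTR peak of Sf3b1, a core subunit of the U2 snRNP, with 1.92 and -30.8. Both had low ratios, and neither gene had any assigned peak in the PBS list.

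Of the 5 unshared NMD peaks of lowest p in the PBS list, 4 had been called on the muscle genes Ttn and Art1. Among them, 3 were on Ttn, at chr2:76711311-76712001, chr2:76726067-76726697 and chr2:76709871-76710111, with fold enrichments of 8.56, 6.24 and 4.12. The fourth was a 3′ UTR peak of Art1, an ADP-ribosyltransferase gene of skeletal and cardiac muscle, with 9.35 and a log10 p of -42.1 at chr7:102110837-102111243. Chosen after their values were seen, Myoz2, the gene of a Z-disc protein of striated muscle, had 4.44 in a 5′ UTR peak, and the muscle splicing factor gene Rbm20 had 7.28 in an exon, with no peak assigned to either gene in the OVA list. The paper reports Rbm20 as both hypomethylated and lower in expression in the OVA group. No list of muscle genes was set beforehand for NMD peaks. Jph1, another muscle gene, had a shared 3′ UTR peak (19.5 in OVA, 18.3 in PBS) and a shared exon peak (3.67 and 4). The exception among the 5 was Cys1, which encodes the cilium protein cystin, with a 5′ UTR peak at chr12:24681604-24681813, a fold enrichment of 2.34 and a log10 p of -52.5.

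Of a list of 19 marker genes of tissues other than lung, 3 had a peak called on them in the OVA list (Ryr2, Syp and Tg) and 5 in the PBS list (Gfap, Myh6, Myh7, Ryr2 and Syp), none of them an NMD peak. The cardiac myosin heavy chain genes Myh7 and Myh6 had 5 and 2 peaks in the PBS list and none in the OVA list. The highest fold enrichment was 3.78 on Myh7 and 3.3 on Myh6. Ryr2, the cardiac calcium release channel gene, had 3 peaks in OVA and 2 in PBS, while the heart genes Actc1, Tnni3 and Myl7 had none in either. Heart genes without a peak in either list show no direction, and the part of muscle tissue in the Ttn and Art1 peaks was not tested. Of 33 lung markers, 27 had a peak called on them in each list, among them Sftpb, Scgb1a1 and Ager, while Sftpc, Scgb3a2, Epcam, Acta2, Marco and Siglecf had none. No NMD peak was assigned to a lung marker. A peak of any biotype was assigned to 20 lung markers in each list, and to 4 (OVA) and 5 (PBS) markers of other tissues. These counts are too small to be set apart from the share over all genes (5.23% in OVA and 5.17% in PBS).

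A shared NMD peak nearly always had an NMD peak as its counterpart. At least 1 overlapping peak of this biotype was found for 907 of 935 shared peaks of the OVA list (97%, 95.7 to 97.9%) and for 931 of 955 of the PBS list (97.5%, 96.3 to 98.3%). The same transcript was named for 902 and 926 of them. Over shared peaks of all kinds, at least 1 overlapping peak of the same biotype was found for 98% in each list. By the peak of largest overlap alone, the counterpart was an NMD peak for 891 (95.3%) and 915 (95.8%), against the same biotype for 96.8% of shared peaks of all kinds in each list. No overlapping peak was an NMD peak for 28 peaks of the OVA list, of which 22 met a protein-coding counterpart, and for 24 of the PBS list, with 13 protein-coding and 6 retained-intron counterparts.

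The leading examples were sites whose ends or gene of the call differed between the lists. Differing ends were common, since 90.3% (OVA) and 90% (PBS) of NMD peaks had no peak with identical ends in the other list. Over all peaks this was 89.7% and 89.3%. The Ccdc134 peak of the OVA list shared its last block with a PBS peak at chr15:82140888-82141366 that was assigned to Srebf2, the gene of a sterol-regulated transcription factor, and had a fold enrichment of 31.3. In the same way, a peak of Fam53c in the OVA list (10.9) met one of the histone demethylase gene Kdm3b in the PBS list (13.5). For Scnn1a, the alpha subunit of the epithelial sodium channel, the 5′ UTR peaks began at chr6:125321258 (OVA) and chr6:125321288 (PBS) and had 6.2 in the OVA list as NMD and 5.41 in the PBS list as protein-coding. Such peaks of the PBS list were led by Pcdhgc3, a clustered protocadherin gene (5.2, retained intron in the OVA list), the kinase gene Stk11 (11.5) and Tmf1, a golgin gene (6.92), both with a processed transcript as counterpart.

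At the level of genes, 621 had an NMD peak in both lists, which was 84% of the 739 genes of the OVA list and 88.5% of the 702 genes of the PBS list. Over all genes with a peak these shares were 87.5% and 91%. NMD peaks were found in the OVA list alone for 118 genes and in the PBS list alone for 81. Many of these still had a peak of some kind in the other group, since 60 of the 118 and 47 of the 81 had one assigned to another biotype there. Genes with an NMD peak made up 5.23% of all genes with a peak in OVA and 5.17% in PBS.

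For 891 NMD peaks of the OVA list the largest overlap in the PBS list was an NMD peak, and the percentile of fold enrichment was compared within these pairs. The median difference, OVA minus PBS, was 1.91 points, with quartiles of -4.84 and 9.4, against a median of 1.4 points over 22006 pairs of all biotypes. At least 20 points higher in the OVA list were 76 NMD pairs (8.53%), where the share over all pairs was 9.12%. At least 20 points higher in the PBS list were 65 (7.3%), against 8.56% over all pairs. Most pairs were near each other, with 750 of 891 less than 20 points apart. At a limit of 30 points, 30 NMD pairs were higher for OVA and 34 for PBS, so that the order of these counts depended on the limit. It did so over all pairs too, with 887 and 1078 of 22006 at 30 points. Several OVA peaks can be paired with 1 PBS peak. Among the 840 NMD pairs in which each peak was the largest overlap of the other, 73 were at least 20 points higher for OVA and 44 for PBS (8.69% and 5.24%, against 9.29% and 6.4% over all such pairs), and at 30 points 29 and 17, against 843 and 661 over all such pairs.

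The largest rises in the OVA group were on genes of varied function. Fam13b stood at percentile 85.3 in the OVA list with a fold enrichment of 15.4, and at 2.89 in the PBS list with 1.54, while protein-coding peaks that overlapped these had 3.95 and 2.47. Cilp, an extracellular matrix protein gene, stood at 98.4 with 35.3, in the 3′ UTR at chr9:65279228-65280395, and at 27.1 with 3.02 in the PBS list. There it met 3 peaks, and another of them had 11.4 at percentile 76.7. The other rises were an exonic peak called on Ttn (22.1 against 3.36), one of Nupr1l that had been called on Zbed5 (20.5 against 3.95) and the Son peak. The log10 p was -6.54 (OVA) and -10.9 (PBS) for this Ttn pair, and -6.61 and -2.61 for the Nupr1l pair. For Son the difference of 56.1 points came from a PBS peak at chr16:91657294-91658614 with 2.51, while the PBS peak that covered the other end of the same stretch had 10.5.

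Among the largest falls, Rrp7a, a ribosome biogenesis gene, stood at percentile 17.8 in OVA and 91.3 in PBS, with fold enrichments of 2.43 and 18.3. Foxn4, a forkhead factor gene, had 2.51 and 16.8, and Fam135a had 3.11 and 24.8. Tmem44, a membrane protein gene, had 3.21 and 21.1, and Cdr2, which encodes a cytoplasmic antigen of paraneoplastic disease, had 2.6 and 14. For 4 of these 5 the paired OVA peak was a weaker neighbour of a second OVA peak that met the same PBS peak. The second peak had 21.1 for Fam135a, 16.6 for Tmem44, 14.8 for Cdr2 and 7.6 for Foxn4, so that only Rrp7a had no stronger OVA peak at its site. The Rrp7a peaks were weak by p, with a log10 p of -3.48 in the OVA and -5.32 in the PBS list. The Tmem44 peak of the OVA list was 120 bp wide with a log10 p of -4.42, against -234 for its PBS counterpart at chr16:30513112-30517209. The Cdr2 peaks likewise shared only part of their length, with chr7:120958591-120960095 in the OVA list and chr7:120957933-120958681 in the PBS list.

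Genes of the decay pathway itself carried m6A peaks. In the lists of decay factors, exon junction complex genes and RNA decay enzymes, 0 to 2 genes each had NMD peaks. These were too few to be set apart from the share over all genes (5.23% in OVA and 5.17% in PBS). Of 18 factors of nonsense-mediated decay, 18 had an assigned peak in OVA and 16 in PBS, and Gspt2, a translation termination factor gene, was the 1 member with an NMD peak in either list (5.56% and 6.25%). Its OVA peak at chrX:94636694-94638450 had a fold enrichment of 14.2, and the same stretch held 3 PBS peaks with 7.61, 9.97 and 3.85. Of 14 exon junction complex genes, 11 and 12 had a peak in the OVA and PBS lists and 0 had an NMD peak. Of the 27 RNA decay enzymes with a peak in the OVA list, Cnot3, a subunit of the CCR4-NOT deadenylase, and Pan3, of the PAN2-PAN3 deadenylase, had NMD peaks in the OVA list, both exonic, weak (1.75 and 1.4) and unshared, which is 7.41%. The PBS list had 0 of 24.

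NMD peaks were present on several splicing factor genes, in counts too small for a statement on the groups. Of the OVA list, 3 of 14 SR splicing factor genes with a peak had an NMD peak, as did 2 of 22 hnRNP genes and 8 of 33 other RNA-binding and splicing genes. The PBS list had 3 of 12, 2 of 20 and 6 of 30. These shares ran from 9.09% to 25%, against 5.23% and 5.17% of all genes. All genes with a peak include noncoding genes and pseudogenes, whereas these lists hold coding genes, so the comparison is not like for like. A share over coding genes alone was not computed.

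Srrm2, which encodes a large spliceosome scaffold, had the lowest p among the SR genes, in an exonic peak at chr17:23820548-23820967 with a fold enrichment of 3.56 in OVA and 3.22 in PBS. In neither list did this Srrm2 peak have a base in the assigned transcript, whereas the Srsf2 peak lay wholly inside its own. Srsf2, whose RNA is known for autoregulation through this decay, had a 3′ UTR peak at chr11:116851902-116852052 with 1.86 and 1.75, below percentile 8 in both lists. The peak of Srrm1 in the OVA list (1.41) and that of Srsf5 in the PBS list (1.19) were unshared and near the bottom of their lists. Of the hnRNP genes, Hnrnpu, a nuclear scaffold protein gene, had 3 NMD peaks in each list, the strongest at chr1:178329165-178330210 with 4.5 in the OVA and 4.14 in the PBS list. Hnrnpd, a regulator of AU-rich RNAs, had 1.67 and 1.44. NMD peaks on SR and hnRNP genes thus lay below the median of 5.65 and 5.29 in each list.

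The other RNA-binding genes were mixed, with the strongest NMD peak above that median for 4 of 8 genes in the OVA list and 4 of 6 in the PBS list. Besides Son, Luc7l3, a U1 snRNP-associated gene, had a 3′ UTR peak at chr11:94291124-94291543 with 13.8 in the OVA and 14.4 in the PBS list. Tial1, which encodes a stress granule protein, had 19.7 and 30.2 in a 3′ UTR peak that began at chr7:128441749 in both lists. Prpf4b, a kinase gene of the spliceosome, had 6.47 and 6.14 at chr13:34883258-34884488. In neither list did this Prpf4b peak have a base in the assigned transcript, whereas these Luc7l3 and Tial1 peaks lay in theirs in part. Son had 3 NMD peaks in OVA and 6 in PBS, and each of the 6 overlapped a peak of the OVA list. The weak NMD peaks on these genes included 2.38 on Tial1 in the OVA list, and 1.4 on Son and 1.69 on Prpf4b in the PBS list. Below the median in the OVA list were Qk (5.26), Sf3b1 (1.92), Luc7l2 (1.83) and Rbm5 (1.46), and in the PBS list Qk (3.74) and Luc7l2 (1.61).

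Counts in other gene lists were too small to be set apart from the share of 5.23% and 5.17% over all genes. Of 16 ribosomal protein genes with a peak in OVA and 18 in PBS, 0 had one, and the same was true of 15 and 13 m6A writers, erasers and readers and of 16 and 16 signalling genes of T and B cells. Nupr1, a stress-induced chromatin protein gene, was the 1 member with an NMD peak among 15 NMD-sensitive stress genes with a peak. Its 3′ UTR peak at chr7:126623249-126623548 had 7.35 in the OVA and 5.73 in the PBS list, and its 5′ UTR peak at chr7:126625427-126625546 had 4.44 and 1.88. On the percentile scale the 5′ UTR peak of Nupr1 stood 33.35 points higher in the OVA list.

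Among genes of allergic inflammation, 22 had a peak in OVA and 16 in PBS, and Il4ra alone had NMD peaks (4.55% and 6.25%, near the share over all genes). Its second peak, at chr7:125577265-125577862 in the 3′ UTR, had 8.73 in the OVA and 6.95 in the PBS list. Genes of nucleic acid sensing and the interferon response had NMD peaks as well. Cgas, the cytosolic DNA sensor gene, had 4 NMD peaks in the OVA and 2 in the PBS list. Its pairs differed in opposite directions, with 5.36 against 24.2 in the 3′ UTR and 18 against 4.07 in the 5′ UTR. These peaks were weak by p, with log10 p of -8.64 and -7.29, and of -5.98 and -3.04. The medians over NMD peaks were -33 (OVA) and -28.4 (PBS). Paired block widths differed too (420 and 300 bp, 509 and 180 bp), and the remaining Cgas peaks of the OVA list were unshared, with 1.81 and 2.02. Oasl2, an interferon-induced gene, had an unshared exonic peak in the PBS list with 10.

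The sequence under NMD peaks could be read only where a peak crossed the start of its gene, in windows of 300 bases from RefSeq (GRCm38.p6). Such a window was given for 622 of the 820 genes with an NMD peak in either list. At least 30 bases of it lay in 50 NMD peaks of OVA and 40 of PBS. Common forms of the m6A consensus were searched on both strands. The letters GGACT were present on the strand of the gene in 8 of the 50 and 4 of the 40 peaks, and on the other strand in 10 and 13. The form with A at its end, GGACA, was present on the strand of the gene in 6 and 4, and on the other strand in 2 and 1. The form that ends in C, namely GGACC, was there in 4 and 5, and on the other strand in 8 and 6. Over all 32851 promoter windows, the strand of the gene held the GGACT form in 26.1%, the GGACA form in 28.2% and the GGACC form in 26.1%. At the same offsets as the NMD peaks, which cover a median of 61 bases in the OVA list, the mean share of all windows with GGACT was 10.2%, with GGACA 10.7% and with the GGACC form 9.92%. The offsets of the PBS list, with a median of 71.5 bases, gave 10.7%, 11.2% and 10.4%. On the strand of the gene, each of these shares was within the interval of the NMD peaks. On the other strand GGACT was in 20% of the OVA peaks (11.2 to 33%) and 32.5% of the PBS peaks (20.1 to 48%), above the 9.72% and 10.1% of all windows, while the remaining forms were within their intervals there. These 2 were the exceptions among 12 comparisons, and the other strand is not the sequence of the RNA. A match describes the letters in the window and does not place a methylated base.

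The stretches around GGACT in 5′ UTR peaks, and around GGACA for the unshared peak of Cys1, show which letters lie under these peaks. Apart from Cys1, the genes were chosen after their values were seen. Each stretch has 10 bases on either side of the motif, in capitals, on the strand of the gene. Adgrl3, an adhesion receptor gene, had a 5′ UTR peak in both lists (fold enrichment 23.4 in the OVA and 36 in the PBS list), with the stretch at chr5:81020578-81020602 on the plus strand. Pxdc1 also had one in both lists (12.3 and 17.4), with chr13:34652730-34652754 on the minus strand. The stretch of Hacl1, a peroxisomal lyase gene, was at chr14:31641014-31641038 on the minus strand, in an OVA peak of 24.1, and that of Pcid2, an mRNA export gene, at chr8:13105386-13105410 on the minus strand, in an OVA peak of 5.39. Unshared OVA peaks held those of Cenpk, a kinetochore gene (chr13:104228985-104229009, plus strand, 10.8), and of the cytidine deaminase gene Apobec3 (chr15:79895014-79895038, plus strand, 1.63). Unshared PBS peaks held those of Morn3 (chr5:123046973-123046997, minus strand, 14.3) and Cys1 (chr12:24681785-24681809, minus strand, 2.34).
Adgrl3: acggcgaggaGGACTgggcggagaa
Pxdc1: gccgcagccgGGACTcgacgtcgcc
Hacl1: gcctcaccaaGGACTgacttcttgt
Pcid2: accccggcgaGGACTtgagtggata
Cenpk: ggaggccggaGGACTgaagtgagtt
Apobec3: ctgagaatcaGGACTtgtgtgcaag
Morn3: gcaagggcaaGGACTgttgtgggtc
Cys1: cccctcccttGGACAttctctctct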

How the data were processed

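Libraries were 12 in all, IP and input of 3 mice per group. The authors trimmed reads with FASTP, aligned them with HISAT2 to the Ensembl mouse genome, used exomePeak for peak calling and ChIPseeker for annotation (software versions not given in the sources used here), and deposited 1 list per group. How mice were combined was not stated. Deposited fold enrichment is a ratio of IP to input, and the deposited p value and FDR are scores on a log10 scale (highest log10 p -1.3 in the OVA list). The members and the gene lists were chosen with earlier results of these data known.

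Start positions count from 0 in the lists and were printed from 1. Of the NMD peaks called on a gene with a RefSeq position in GRCm38.p6, 96.6% (OVA) and 97.5% (PBS) overlapped it, and positions are given in that build. Blocks were overlapped by at least 1 bp with Python 3.11.15, numpy 2.4.6 and pandas 2.3.3, with code tested on simulated peaks, and Wilson intervals came from scipy 1.17.1. Pairs are an OVA peak and the PBS peak of largest overlap. A shared peak counts as having an NMD counterpart when any peak it overlaps is one.

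Named by rule were, per list, the 5 NMD peaks of highest fold enrichment at FDR under 0.05, the 5 of lowest p, the 5 unshared ones of lowest p and the 3 of lowest p whose counterparts had another biotype, then the 3 genes with most NMD peaks, the 5 largest rises and 5 largest falls in percentile, and up to 4 genes per gene list by lowest p. Some of the peaks and genes these rules name are not printed. A gene counts as having a peak when one was assigned to it, or, for tissue markers, called on it. The alternatives tried were stricter FDR and fold thresholds, other overlap rules, 1 peak per gene, assignment filters, leaving out peaks called on Ttn, and other pairing rules.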

Additional observations from a re-analysis of the deposited data

How the results depend on the processing

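Of 78 alternative values, 63 stayed within the 95% interval of the value reported (for shares the Wilson interval, for medians one from order statistics over the peaks) or, for counts, within 1.5 times of it. Keeping only NMD peaks whose annotation cites the assigned gene left 255 in the OVA and 281 in the PBS list, by construction, since UTR annotations cite no gene. An alternative chosen after seeing the data, at least 1 base in the assigned transcript, left 704 in the PBS list. With 1 peak per gene, that of lowest p, the median fold enrichment was 6.84 (OVA) and 6.75 (PBS). NMD peaks without an overlap were 28.5% (OVA) and 26.4% (PBS) when 50% of both peaks had to overlap, and 90.3% and 90% when both ends had to be identical, where all peaks had 31.4% and 28.3%, and 89.7% and 89.3%. By the peak of largest overlap, a rule added after seeing the data, 95.3% (OVA) and 95.8% (PBS) of shared NMD peaks had an NMD counterpart. Summed block width had a median of 360 bp in both lists. At 30 percentile points, also chosen after seeing the data, 30 NMD pairs were higher in OVA and 34 in PBS, which turns the order of these 2 counts. Among pairs in which each peak is the largest overlap of the other, added later as well, the counts at 20 points were 73 and 44. Without the peaks called on Ttn, likewise added later, unshared NMD peaks were 16.8% (OVA) and 11.6% (PBS). Regions limited to peaks whose annotation cites the assigned transcript were not run, since only exon annotations cite one. No paired analysis was possible because the lists hold no values of single mice, and for the same reason no mouse could be left out. Intervals cover counting error only, and with 1 list per group no difference between the groups could be set against the spread between mice.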

Other observations

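Some chromosomes, chosen after their values were seen, held another share of NMD peaks than of all peaks. Chromosome 7 held 113 of 1124 in the OVA list (10.1%) and 108 of 1095 in the PBS list (9.86%), against 7.71% and 7.62% of all peaks. Chromosome X held 14 (1.25%) and 15 (1.37%), against 2.57% and 2.65% of all peaks, and none was on chromosome Y or on the mitochondrial chromosome. Chromosome 2 held 7.56% and 8.86%, against 7.47% of all peaks in each list. No interval was computed for these shares. The Gm49388 locus gave 9 of the peaks on chromosome 7 in each list. Peaks called on Ttn were 14 of the 85 NMD peaks on chromosome 2 in the OVA list and 25 of the 97 in the PBS list.

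Some immune genes outside the naming rule, chosen after their values were seen, carried strong or unshared NMD peaks. Socs2, a suppressor of cytokine signalling, had a 3′ UTR peak of 3 blocks at chr10:95412328-95414700 with a fold enrichment of 13 and a log10 p of -2800 in the OVA list, against 14.1 and -1580 in the PBS list. Cxcl16, the gene of a chemokine and scavenger receptor, had 2 unshared OVA peaks with 1.29 and 1.7, and no peak assigned to it in the PBS list. Pram1, an adaptor gene of myeloid cells, had an unshared OVA peak of 2.27, and a second call of the same site on the overlapping gene Gm20507 had 2.33. These unshared peaks had ratios below the median of 2.46 for unshared NMD peaks of the OVA list.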
